A study of Heterocephalus glaber and Mus musculus with 6 samples.

Results

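The Rfx transcription factors and the genes of the cilium were described in epidermal keratinocytes of 7 to 8 week-old FVB mice, an inbred laboratory strain. Members were the mouse genes whose symbol names an Rfx factor, an intraflagellar transport (Ift) or Bbs protein, an axonemal dynein chain (Dnah) or its assembly factor (Dnaaf), a dynein-2 subunit, a tectonic (Tctn) or a nephrocystin (Nphp), with Foxj1 left out. Of 57 such genes in the annotation, 44 had an entry of their own in the count tables and 33 were measured, that is, had a mean of at least 10 counts, out of 9965 measured mouse genes. These 33 were 5 Rfx factors and 28 cilium genes. The members without an entry, among them Bbs2, Dnaaf1, Dnaaf2, Dnah8, Dnah11, Dnah14, Dnah17, Ift20, Ift43, Ift46, Ift80 and Ift172, were not analysed here.

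The study profiled dorsal skin of homeostatic FVB mice and of naked mole-rats, with 3 libraries per species. Epidermis was separated with dispase, dissociated and sorted for CD49f, an integrin of basal keratinocytes, and ribosomal RNA was depleted before sequencing. Only the 3 mouse libraries are used below, since the naked mole-rat identifiers were not paired with gene names, so no member could be compared between the species and no test between groups exists. The labels do not say whether the libraries came from separate animals, and the spread between them may be in part technical.

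Mouse libraries 1, 2 and 3 held 52499080, 53465434 and 52970733 counts. Entries with an Ensembl identifier, the ones that carry a gene name, took 10.6% to 11.5% of them, the rest lying in 11689 assembled loci without names. A count below is therefore a value of the gene's own entry, and reads of the same gene in an assembled locus would not be in it. The basal markers Krt5, Krt14, Itga6 and Trp63 were not analysed here. Itga2, an integrin subunit of basal keratinocytes, had 53.5, 49.1 and 42.4 CPM (counts scaled to a library of 1000000 counts) in libraries 1, 2 and 3. The other measured basal markers were less even. Ass1 had 370, 630 and 365 counts, at least 1.5-fold higher in library 2 (11.8% of all measured genes were). Syt8 had 65, 38 and 32, at least 1.5-fold higher in library 1 (13.2%) and lower in library 3 (15.4%). The Y-linked gene Ddx3y had 3483 counts in library 1, against 0 and 0 in libraries 2 and 3, so library 1 differs from the others in the sex of its animals.

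Rfx proteins are winged-helix factors that bind the X-box, a motif in the promoters of many cilium genes, and Rfx2 and Rfx3 are known as activators of such genes. A primary cilium is a single, immotile antenna that most resting cells, keratinocytes of the epidermis among them, build on the mother centriole, and through which hedgehog signals are received. Intraflagellar transport carries its parts along the axoneme, the transition zone gates its base, and the BBSome moves membrane proteins in and out. Motile cilia of airway or oviduct cells add dynein arms, which need their own heavy chains and assembly factors.

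Rfx2 was the member that differed most between the libraries among the well counted ones. It lies on chromosome 17 from 56775897 to 56831013 on the minus strand (GRCm38) and overlaps no other annotated gene. It had 3899 counts (74.3 CPM) in library 1, against 1459 (27.3 CPM) in library 2 and 1050 (19.8 CPM) in library 3. Library 1 thus stood well above both others, and library 2 was above library 3. The ratio of library 1 to the pooled other libraries was 3.15, with an exact 95% interval of 3.00 to 3.31 that covers counting error only. The ratio of library 2 to library 3 was 1.38, with an interval of 1.27 to 1.49. On the log2 scale, library 1 deviated by 1.67 from the mean of the other 2, library 2 by −0.49 and library 3 by −1.18. This gene was picked out for its difference between the libraries, so these values are a description. Of the 1985 measured genes with a mean of at least 1000 counts, 3 had a highest-to-lowest ratio at least as large, Rfx2 itself and the Y-linked Ddx3y and Uty, where the median gene of that depth had a ratio of 1.16.

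Dus3l, the neighbour of Rfx2 with the most counts in an entry of its own, did not have its difference. Dus3l encodes a tRNA-modifying enzyme, lies 5804 bases away and had 1407 counts in library 1, against 1295 and 1088 in libraries 2 and 3. Its deviation in library 1 was 0.26. Prr22, 3689 bases away, had 18, 6 and 15 counts in libraries 1, 2 and 3, too few to follow. Acsbg2, an acyl-CoA synthetase gene 12090 bases from the other end of Rfx2, had 0 counts in each library. The next genes on that side, 1700061G19Rik, Mllt1 and Acer1, had no entry and were not analysed here.

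**Figure D1:**
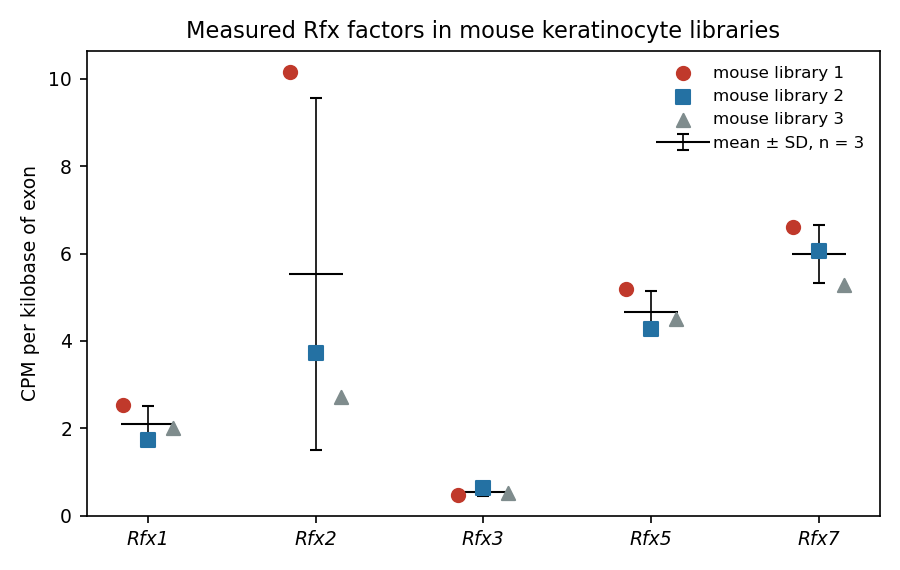
Level of the 5 measured Rfx factors, as CPM per kilobase of exon, in each mouse library (points), with the mean and SD of the 3 libraries (bars). Rfx2 had 10.2 CPM per kilobase in library 1, against 3.73 and 2.71 in libraries 2 and 3, while the 3 points of each other factor lie close together.

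No other Rfx factor had such a difference. Rfx7, which acts in the p53 response of human cells, was the highest per length, at 5.99 ± 0.668 CPM per kilobase of exon (SD, n = 3). Its counts were 5318, 4949 and 4286 in libraries 1, 2 and 3, so it followed the same order of libraries as Rfx2, but with a highest-to-lowest ratio of 1.25. Rfx2 averaged 5.53 ± 4.04 CPM per kilobase (SD, n = 3), and Rfx5, an activator of MHC class II genes, 4.66 ± 0.475. Rfx2 does not differ from either beyond its spread over libraries. The libraries of Rfx7 and Rfx5 did not overlap, with a lowest value of 5.29 for Rfx7 and a highest of 5.19 for Rfx5.

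Rfx1 and Rfx3, the closest relatives of Rfx2, were lower per length. Rfx1 had 2.10 ± 0.409 CPM per kilobase (SD, n = 3), with 858, 597 and 687 counts in libraries 1, 2 and 3. Rfx3 had 0.544 ± 0.0884 CPM per kilobase (SD, n = 3), with 276, 380 and 299 counts. Rfx3 was therefore lowest in library 1, where Rfx2 was highest, and its ratio of library 1 to the pooled others was 0.824 (exact 95% counting interval 0.714 to 0.949). Rfx1 was highest in library 1, with a ratio of 1.36 (interval 1.24 to 1.48). The spans of Rfx1, Rfx3, Rfx5 and Rfx7 each hold other annotated genes, from which reads could be shared. Rfx4, a factor of the brain, Rfx6, a factor of pancreatic islets, and Rfx8 had 0 counts in every library, which allows at most 0.0571 CPM in a library, in their own entries.

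Members of the machinery that all cilia share were measured, and those of the dynein arms were close to 0. All 23 Ift, Bbs, dynein-2, Tctn and Nphp genes with an entry passed 10 counts, as did 3 of 11 axonemal dynein chains. Of all 42321 mouse entries with a symbol of their own, 9965 did. The median level of the 28 measured cilium genes was 0.996 CPM per kilobase, against 1.30 for all measured genes. Passing the count minimum depends on the level, so this median describes the genes that passed and not all members.

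**Figure D2:**
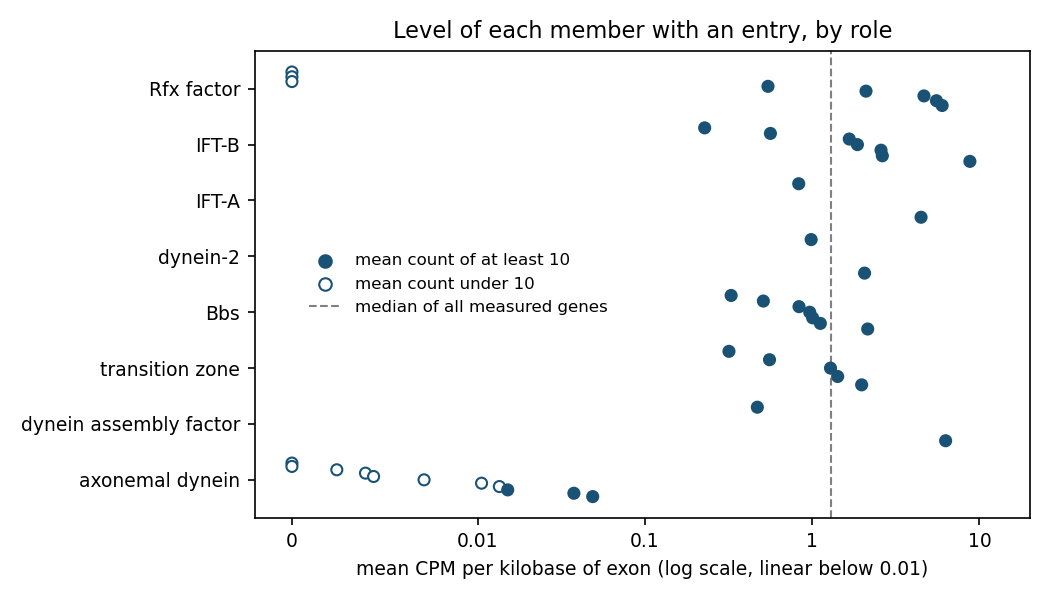
Mean CPM per kilobase of exon over the 3 mouse libraries for each of the 44 members with an entry, by role, on an axis that is logarithmic above 0.01 and linear below. The axonemal dynein chains lie at or under 0.0487 CPM per kilobase, and every measured member of the other groups at or above 0.228.

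In the IFT-B complex, which drives transport toward the tip of the cilium, levels per length spanned a wide range. Ift52, a core subunit, was the highest of all cilium members at 8.77 ± 0.389 CPM per kilobase (SD, n = 3). Ift74, which forms a tubulin-binding pair with Ift81, had 2.63 ± 0.304, and the core subunit Ift88 2.58 ± 0.176. The Rab-like GTPases Ift27 and Ift22 had 1.86 ± 0.375 and 1.67 ± 0.0970. Ift57 had 0.563 ± 0.177 and Ift81 0.228 ± 0.0648, so the 2 partners Ift74 and Ift81 differed in level by more than their spread. Neighbours in this order such as Ift74 and Ift88, or Ift27 and Ift22, did not.

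The IFT-A complex and dynein-2 carry cargo back to the cell body. Ift140, a core IFT-A subunit on chromosome 17, had 4.48 ± 0.536 CPM per kilobase and Ift122 0.831 ± 0.157 (SD, n = 3 each). Dync2h1, the motor heavy chain, had 2.06 ± 0.332 and its light intermediate chain Dync2li1 0.986 ± 0.228. All 4 were lowest in library 3. Ift140 had 2142 and 2078 counts in libraries 1 and 2 and 1710 in library 3, and Dync2h1 had 1817 and 2058 counts, and 1471 in library 3.

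Among the Bbs genes, which are mutated in Bardet-Biedl syndrome in humans, Bbs9 was the highest at 2.15 ± 0.181 CPM per kilobase (SD, n = 3). The BBSome subunits Bbs4, Bbs5, Bbs7 and Bbs1 had 1.12, 1.01, 0.834 and 0.511 CPM per kilobase, and the chaperonin-like assembly proteins Bbs12 and Bbs10 0.967 and 0.328. Bbs5 was nearly level over the libraries, with 127, 134 and 130 counts.

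At the transition zone, Tctn3 had 1.98 ± 0.0557 CPM per kilobase, Tctn1 1.42 ± 0.310 and Tctn2 0.556 ± 0.0944 (SD, n = 3 each). The nephrocystin Nphp4 had 0.318 ± 0.0609. Tctn3 was level over the libraries with 338, 337 and 353 counts, and Tctn1 was lower in library 3, with 471 counts against 726 and 675 in libraries 1 and 2. Tctn1 overlaps Hvcn1, Nphp4 overlaps Kcnab2, Bbs4 overlaps Adpgk and Ift140 overlaps Tmem204, so reads of each pair may not be told apart.

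The axonemal dynein heavy chains, the motors of beating cilia, hardly registered. Dnah1 had the highest level per length of them, 0.0487 ± 0.00774 CPM per kilobase, from 34, 39 and 28 counts. Dnah7b had 63, 25 and 31 counts in libraries 1, 2 and 3, and Dnah2, just above the minimum, 10, 15 and 11. Dnah10 (5, 12 and 10 counts) and Dnah7c (8, 11 and 8) lay just under it, and Dnah9, an outer arm chain, had 8, 5 and 5. Dnah3 and Dnah5 had 9 and 6 counts in library 3 and 0 in the other libraries, and Dnah7a had 9 in library 2 alone. Dnah6 and Dnah12 had 0 counts in all libraries. Dnah7a, Dnah7b and Dnah7c are close copies of one another on chromosome 1, so the split of reads among them is uncertain. Dnaic1 and Dnaic2, the dynein intermediate chains, carry these older symbols in the annotation and so fell outside the member rule. Both had 0 counts.

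Of the factors that assemble dynein arms in the cytoplasm, Dnaaf5 had 6.28 ± 0.172 CPM per kilobase, the second highest level among cilium members, and Dnaaf3 had 0.470 ± 0.0432 (SD, n = 3 each). Dnaaf5 had 1149, 1154 and 1205 counts, the smallest highest-to-lowest ratio, 1.05, of the 4 cilium members with a mean of at least 1000 counts.

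The cilium genes did not take on the difference of Rfx2 in size. Of the 28 measured cilium genes, 1 was at least 1.5-fold higher in library 1 than the mean of the other 2 (3.57%), where 13.2% of all measured genes were. That gene was Dnah7b, on 63, 25 and 31 counts. Its ratio of library 1 to the pooled others was 2.28, with a counting interval of 1.57 to 3.33 that reached the 3.00 to 3.31 of Rfx2. The intervals of the other 27 all ended below 3.00. In any direction and library 4 of the 28 passed 1.5-fold (14.3%), against 35.4% of all measured genes, a share that also holds genes with few counts. In the opposite direction Bbs10 was at least 1.5-fold lower in library 1 (9.19% of all measured genes were), with 30 counts against 61 and 68 in libraries 2 and 3. Its ratio was 0.472, with an interval of 0.306 to 0.706.

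By order alone, 9 of the 28 (32.1%) were highest in library 1 and lowest in library 3 like Rfx2, where 25.5% of all measured genes were. Among them were Ift27, Ift74, Ift81, Ift88, Ift140, Bbs7, Bbs9 and Tctn1. With libraries scaled by trimmed-mean (TMM) factors there were 7, where 22.1% of all measured genes had that order. These shares lie near the background. Library 1 was the highest for 13 genes (46.4%, against 38.0% of all measured genes), library 2 for 8 (28.6%, against 37.6%) and library 3 for 7 (25.0%, against 24.4%). Library 1 was the lowest for 3 genes (10.7%, against 29.9% of all measured genes) and library 2 for 10 (35.7%, against 22.5%). In libraries 1 and 2 alone, 19 of the 28 were higher in library 1, against 48.0% of all measured genes. Without library 1, the one with Y-linked counts, 17 of the 28 were higher in library 2 than in library 3 like Rfx2, against 63.1% of all measured genes. Over the 28 genes the median log2 deviation was 0.17 in library 1, 0.024 in library 2 and −0.16 in library 3, against 0.047, 0.073 and −0.098 over all measured genes. The median of library 2 was −0.020 with TMM factors. Summed over the 28 genes the level was 240 CPM in library 1, against 233 and 207 CPM in libraries 2 and 3.

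**Figure D3:**
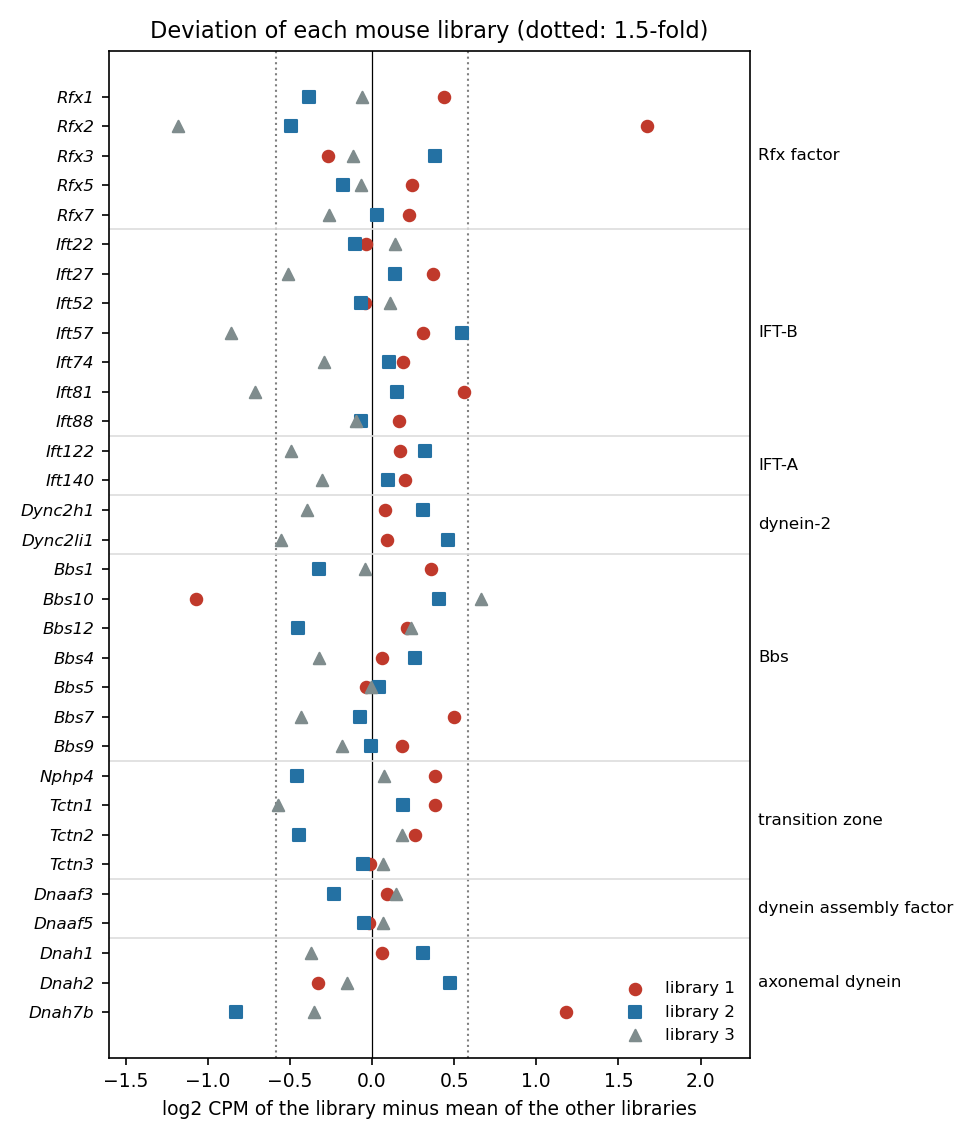
Log2 deviation of each mouse library from the mean of the other 2 for 32 of the 33 measured members, grouped by role. Dotted lines mark 1.5-fold. Rfx2 reaches 1.67 in library 1, and 4 of the 28 cilium genes, Bbs10, Dnah7b, Ift57 and Ift81, pass a dotted line.

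Of the 28 genes 15 were lowest in library 3 (53.6%), a share near the 47.6% of all measured genes. They include both measured IFT-A genes, both dynein-2 genes and 5 of 7 IFT-B genes. The lowest deviations were those of Ift57 (−0.86) and Ift81 (−0.71), the 2 cilium genes at least 1.5-fold lower in library 3 (7.14%, where 15.4% of all measured genes were). Ift57 had 94 and 107 counts in libraries 1 and 2 and 55 in library 3, and Ift81 had 88 and 74, and 49 in library 3. Their ratios of library 3 to the pooled others were 0.547 (exact 95% counting interval 0.399 to 0.741) and 0.605 (0.430 to 0.838). Bbs10 was the 1 cilium gene at least 1.5-fold higher in library 3 (8.09% of all measured genes), and Dnah7b the 1 at least 1.5-fold lower in library 2 (6.77%). None was 1.5-fold higher in library 2 (11.8%).

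Some members held level in every library. Ift52, with 1264, 1274 and 1368 counts, Ift22, with 310, 306 and 339, Tctn3, Bbs5 and Dnaaf5 had highest-to-lowest ratios of 1.04 to 1.12. Over the 28 genes the median ratio was 1.38, against 1.37 for all measured genes.

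Likeness to Rfx2 was also measured as the distance between centred log2 CPM profiles over the 3 libraries. The nearest cilium genes were Dnah7b at 0.682, Ift81 at 0.911, Bbs7 at 0.971, Tctn1 at 1.05 and Ift27 at 1.06. The farthest was Bbs10 at 2.29, followed by Dnah2, Ift22, Ift52 and Dnaaf5, from 1.64 down to 1.43. Bbs7 had 293 counts in library 1, against 229 and 192 in libraries 2 and 3, the same order as Rfx2 with a highest-to-lowest ratio of 1.54. Members with 0 counts in all libraries, whose profile is flat, lay at 1.39 from Rfx2.

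Other genes of the cilium were read in lists chosen by function. Among partners of intraflagellar transport, 1 of 15 measured genes was at least 1.5-fold higher in library 1, where 13.2% of all measured genes were. It was Ttc26, an IFT-B subunit, with 126 counts in library 1, against 90 and 49 in libraries 2 and 3, the order of Rfx2. The kinesin-2 motor gene Kif3b, with 1302, 1380 and 1366 counts, was level. Other kinesin-2 genes were less so, with 305, 389 and 436 counts for Kif3a and 1061, 1038 and 864 for Kifap3. Of 7 partners of the BBSome, Arl6, the GTPase that recruits it to membranes, was the 1 gene past 1.5-fold in any library (35.4% of all measured genes were), with 162 counts in library 1, against 323 and 243 in libraries 2 and 3.

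Of 10 other measured transition zone genes, 2 were at least 1.5-fold higher in library 1 (13.2% of all measured genes were) and 1 was lower (9.19%), shares near the background. Cc2d2a had 1209 counts in library 1, against 838 and 705 in libraries 2 and 3, and B9d2 107, against 82 and 60. Tmem237 went the other way, with 113, against 241 and 177. Tmem231 and Tmem17 passed 1.5-fold in libraries 2 and 3, in opposite directions. Tmem231 was higher in library 2 and lower in library 3, with 256, 345 and 170 counts in libraries 1, 2 and 3. Tmem17 was lower in library 2 and higher in library 3, with 36, 28 and 53. Of the 10 genes, Cc2d2a, B9d2, Tmem237, Tmem231 and Tmem17 thus passed 1.5-fold in any library, a higher share than the 35.4% of all measured genes. Among 17 genes of the basal body and of ciliogenesis 1 passed 1.5-fold in any library, against 35.4% of all measured genes. Arl13b, a GTPase of the ciliary membrane, had 2887 counts in library 1, against 1994 and 1891 in libraries 2 and 3, a deviation of 0.59 in library 1. Pcm1, the scaffold of centriolar satellites, had 4835, 4862 and 4386 counts. Of the 17 genes, 15 were lowest in library 3, where 47.6% of all measured genes were. Their median deviation in library 3 was −0.23, against −0.098 over all measured genes. The order of Rfx2, highest in library 1 and lowest in library 3, was that of 5 of the 17 (25.5% of all measured genes).

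Many genes of motile cilia were at 0. Of 44 with an entry 19 had 0 counts in all libraries, among them Mcidas, Hydin, Tekt1 and Spag17, and 16 were measured. Of all 42321 mouse entries with a symbol of their own 9965 were measured, and the share of them at 0 is not reported here. The zeros are thus not read as particular to motile cilia. A list of multiciliated cell markers shared several genes with the motile list, Mcidas and Tekt1 among them. In it 7 of 11 were at 0, and the summed level was 0.819, 1.31 and 1.06 CPM in libraries 1, 2 and 3. The most abundant genes of the motile list per length were Dnal4, with 592, 614 and 625 counts, and Rsph3a and Rsph3b, near copies of each other whose reads may be shared. In library 1, 3 of the 16 genes were at least 1.5-fold higher and 2 lower, against 13.2% and 9.19% of all measured genes. Lowest in library 3 were 4 of the 16, against 47.6% of all measured genes, and 2 had the order of Rfx2, against 25.5%. Of the 7 genes past 1.5-fold in any library, 6 had a mean under 60 counts. Dnal1, a dynein light chain, was the exception, with 307 and 311 counts in libraries 1 and 2 and 173 in library 3.

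Hedgehog signals pass through the primary cilium, and 15 genes of the pathway were measured. Their median deviation in library 3 was −0.35, against −0.098 for all measured genes. Highest in library 1 and lowest in library 3, like Rfx2, were 8 of the 15, where 25.5% of all measured genes were. In library 3, 4 of the 15 were at least 1.5-fold lower, where 15.4% of all measured genes were, and 11 were at their lowest, where 47.6% of all measured genes were. The 4 were the transcription factors Gli1 (84, 98 and 47 counts in libraries 1, 2 and 3), Gli2 (356, 346 and 219) and Gli3 (1361, 1136 and 713) and the co-receptor Cdon (2332, 2131 and 1468). Ptch1, the receptor and a target of the pathway, had 1797, 1728 and 1608 counts. The ligand Ihh had 0 counts in library 1 and 18 and 17 in libraries 2 and 3.

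**Figure D4:**
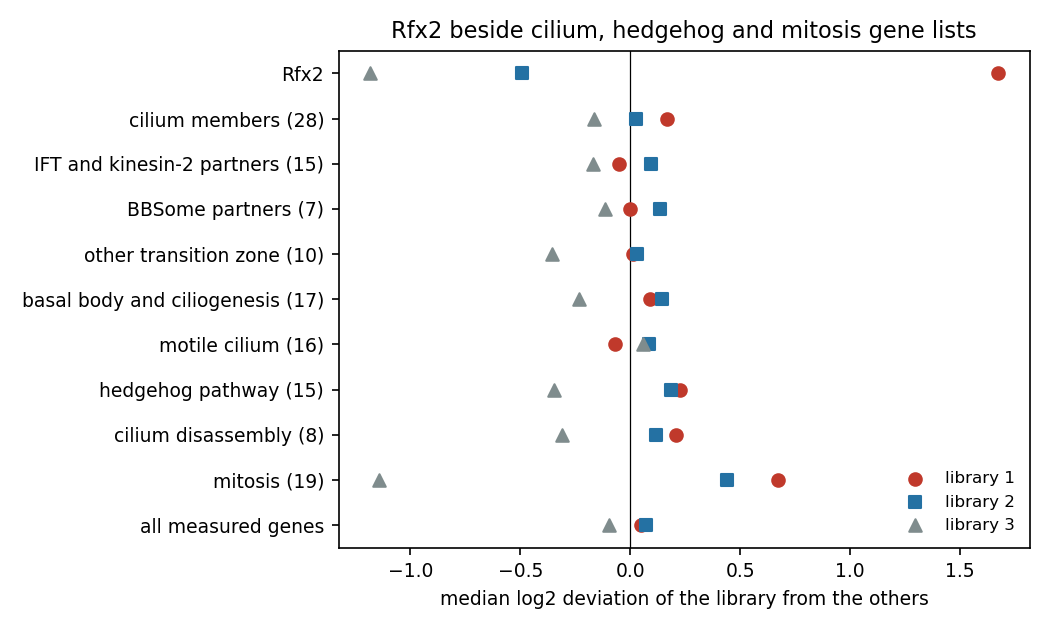
Log2 deviation of Rfx2 and median log2 deviation of each gene list (number of measured genes in brackets) in the 3 mouse libraries, each library set against the mean of the other 2. Rfx2 lies at 1.67 in library 1, the 28 cilium genes at 0.17, and the mitosis list at −1.14 in library 3.

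The order of libraries that Rfx2 had was also that of many mitosis genes. Of 19 measured mitosis genes 15 were highest in library 1 and lowest in library 3, where 25.5% of all measured genes were. The median deviations of the 19 were 0.67, 0.44 and −1.14 in libraries 1, 2 and 3. A list drawn up for cilium disassembly had 8 measured genes. Not all of them take cilia apart, since Cep162, Plk4 and Tcof1 were in it too. Of the 8, 6 had the order of Rfx2, where 25.5% of all measured genes did. At least 1.5-fold lower in library 3 were 3 of the 8 (15.4% of all measured genes were). These were the kinase genes Aurka (296, 338 and 191 counts) and Nek2 (282, 272 and 105) and the scaffold Nedd9 (352, 357 and 231). Of the 19, 18 were at least 1.5-fold lower in library 3, where 15.4% of all measured genes were. The summed level of the list was 306.1, 268.1 and 132.6 CPM in libraries 1, 2 and 3. The part of dividing cells, or of the sex of the animals, in the levels of Rfx2 and of the cilium genes was not tested. In bulk RNA, fewer cells of a type and less RNA per cell cannot be told apart.

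The partners of Rfx5 were level. Rfxap and Rfxank, which bind MHC class II promoters together with it, had 696, 769 and 730 and 541, 581 and 620 counts in libraries 1, 2 and 3. Of the class II genes, H2-DMb1 had 119, 106 and 139 counts and H2-Eb1 4, 8 and 11.

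Markers of the other cell types of skin were also read. Of 5 fibroblast markers with an entry 2 were measured, and their summed level of 50.1, 63.2 and 54.1 CPM in libraries 1, 2 and 3 came nearly all from the collagen gene Col6a3 (2603, 3345 and 2830 counts), with Lum and Pdgfrb at 0. The 6 Merkel cell markers, Atoh1, Sox2, Krt8, Krt18, Krt20 and Piezo2, were at 0, as were the endothelial markers Kdr, Cdh5 and Emcn. Summed levels were 8.31 to 10.6 CPM for melanocyte markers (Tyr and Mlana at 0) and 5.33 to 6.53 CPM for Langerhans and myeloid markers. The 4 measured Langerhans and myeloid markers went different ways, and each passed 1.5-fold in some library (35.4% of all measured genes did). Lyz2 had 0, 0 and 59 counts in libraries 1, 2 and 3, Cd83 179, 293 and 125, Itgam 78, 48 and 105, and Aif1 23, 8 and 9. T cell and leukocyte markers had 64, 92 and 122 summed counts in libraries 1, 2 and 3. The 3 suprabasal keratinocyte markers with an entry summed to 27.9, 22.9 and 22.6 CPM. Of these Tgm3, with 988, 673 and 606 counts, was at least 1.5-fold higher in library 1 (13.2% of all measured genes were). The other 2 went different ways, Dsc2 with 368, 378 and 464 counts and Krt2 with 111, 173 and 129. None of these sums had the order of Rfx2 with a difference of its size, and their part in the levels of the cilium genes was not tested.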

How the data were processed

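RNA from CD49f-sorted epidermal keratinocytes of 3 mouse libraries was analysed. The authors deposited raw counts per gene or assembled locus, 1 table per library, per the labels. Bowtie2, TopHat2, cutadapt, FastQC and the mm10 build appear in the submitters' processing notes. The library kit was directional, per the labels' protocols. Neither counting program nor strand setting is stated (not given in the sources used here), so reads of overlapping or antisense genes cannot be told apart. This touches 15 of the 28 measured cilium genes. Identifiers were joined to symbols, positions and exon lengths of GENCODE M21 (GRCm38, the mm10 assembly).

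CPM used all counts of a library. Deviations are log2 CPM, with 0.5 added to each count, of 1 library minus the mean of the other 2. Ratios carry exact 95% Clopper-Pearson intervals, which cover counting error only, as does the limit of 3 counts set on a count of 0. With 1 group there was no test and no p-value. A rule of 1.5-fold was used to count genes, beside its share over 9965 measured genes. The script was checked on simulated counts. R 4.3.3, edgeR 4.0.16 (TMM), DESeq2 1.42.0 (size factors only), matplotlib 3.10.9, scipy 1.17.1, pandas 2.3.3, numpy 2.4.6 and Python 3.11.15 were used.

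The members and lists were chosen with earlier results of these data known. Named were all Rfx factors, the measured Ift, Bbs, Dync2, Tctn and Nphp genes (some are counted but not reported here by name), the highest or most deviating dynein genes, the 5 genes nearest to and farthest from Rfx2, and for each list the highest genes and those past 1.5-fold. Hydin, Tekt1, Spag17, Mcidas, Ptch1, Kif3a, H2-Eb1, Dnaic1 and Dnaic2 were added after their values were seen. So were the dynein chains under 10 counts, the genes beside Rfx2 and the genes named under other observations. The planned search of promoters for Rfx motifs was not run.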

Additional observations from a re-analysis of the deposited data

How the results depend on the processing

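Of 82 alternative values for 10 results, 68 stayed within the spread between libraries or within 1.5 times the count. That spread was wide, 0.99 on the log2 scale for Rfx2 and 0.17 for the median of the cilium genes. A value could turn its sign and still lie within it, so the 68 do not show stability. None of the called deviations of Rfx2 changed sign. With each library left out, the deviation of Rfx2 lay between 1.44 and 1.91 in library 1, −1.91 and −0.46 in library 3, and −1.44 and 0.46 in library 2, whose sign turned without library 1. The median of the cilium genes lay between 0.052 and 0.25 in library 1, −0.052 and 0.092 in library 2, and −0.25 and −0.092 in library 3. Genes at least 1.5-fold apart numbered 2, 1 and 3 in libraries 1, 2 and 3. With a minimum of 50 counts there was 1 in library 1 and 0 in library 2, and with no minimum there were 7, 5 and 6, the genes added having under 10 counts. With a library left out they numbered 2 to 7, 2 in both cases, and 2 to 7. The share of all measured genes past 1.5-fold under these changed settings is not reported here. These counts are therefore not read as gains or losses. Members that overlap no other annotated gene, chosen after seeing the data, gave 1 gene at least 1.5-fold apart in library 3. Of these members 3 of 13 had the order of Rfx2, against 9 of 28 before and 25.5% of all measured genes. Their median deviation in library 1 was 0.082, against 0.17 over the 28. In 2 libraries, 17 to 19 of 28 shared the order of Rfx2: 17 without library 1 (63.1% of all measured genes), and 19 without library 2 (60.1%) or library 3 (48.0%). CPM over Ensembl entries moved the median of all measured genes in library 3 from −0.098 to 0.012, and that of the cilium genes to −0.054. No paired analysis was possible because the 3 mouse libraries form 1 group and no result comes from a test. Depth limits members with few counts: of the 4 genes past 1.5-fold, Ift81 had 49 to 88 counts a library and Bbs10 30 to 68.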

Other observations

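Among all measured genes with a mean of at least 200 counts, the 8 whose profile over the libraries lay nearest to that of Rfx2 held no member and no gene of the cilium lists. Ccnb2 and Ccnb1, cyclins of mitosis that are also in the mitosis list, had 359, 209 and 106 and 754, 508 and 257 counts in libraries 1, 2 and 3. Etv4, an ETS transcription factor gene, had 667 counts in library 1, against 295 and 297 in libraries 2 and 3. Ptgs2, the inducible cyclooxygenase, had 1333, against 910 and 462, and Pappa, a protease of IGF-binding proteins, 353, against 195 and 92. Golga7b had 578, against 310 and 251, and Xlr3b, on the X chromosome, 384, against 198 and 183. The unclassified locus Gm37524 had 296, against 192 and 113. None of these had a log2 deviation in library 1 as large as the 1.67 of Rfx2, the largest being 1.41 for Pappa.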
